A study of Mus musculus with 15 samples.

Results

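The E2F family of transcription factors was followed across mouse T cells and T cell lymphomas through the 8 genes E2f1 to E2f8, taken by symbol from the 18193 genes named on the arrays. These genes were covered by 16 of 34945 probe sets, and the brightest probe set by mean log2 signal stood for each gene. All 8 passed the filter on low signal, a signal of at least 100 in at least 3 arrays, which 11902 genes passed. Arrays were run on 9 mouse peripheral T cell lymphomas (numbered mPTCL 1 to 9), on 3 samples of T cells activated in vitro and on 3 samples of resting T cells. The lymphomas formed in C57BL/6 mice without CD3, and therefore without T cells of their own, that had received T cells lacking p53, and their cells were sorted from liver. The activated and the resting cells both came from p53-deficient C57BL/6 mice aged 5 weeks and were sorted from liver or spleen, so the loss of p53 is shared by all 3 groups. Injections of PBS or heat-killed bacteria every 2 weeks appear in the growth protocol of these normal samples, without a statement on whether the donors were given either. Replicates may share an animal, since the labels leave this unsaid, and the spread behind each p-value may then be partly technical.

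E2F factors bind DNA at the promoters of genes needed for DNA synthesis and mitosis. E2f1, E2f2 and E2f3 encode the activators, which the retinoblastoma protein holds inactive until cyclin-dependent kinases phosphorylate it late in G1 phase. E2f4 and E2f5 encode repressors that act with the related pocket proteins in resting cells, E2f6 encodes a repressor that works with Polycomb proteins instead of pocket proteins, and E2f7 and E2f8 encode the atypical repressors, which bind DNA without a DP partner and shut down the activators' targets late in S phase. Resting T cells sit outside the cell cycle and enter it after stimulation.

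Signal is given as deposited, on a linear scale, and changes are given in log2 units after signals under 32 were set to that floor (5 on the log2 scale). A gene was called at a limma adjusted p under 0.05 over all tested genes with a change of at least 2-fold. In activated against resting cells, 4 of the 8 genes were called, all higher, where 12.7% of all tested genes were called, 8.45% higher and 4.23% lower. In lymphomas against resting cells the same 4 genes, E2f1, E2f2, E2f7 and E2f8, were called higher, against 13.9% of all tested genes called, 7.03% higher and 6.84% lower. In lymphomas against activated cells, 1 of 8 was called, E2f8, higher, against 15.3% of all tested genes called, 7.04% higher and 8.28% lower. The median change over the 8 genes was 1.14, 1.18 and -0.02 in these comparisons, beside 0.02, -0.02 and -0.08 over all tested genes. The balance of all genes turned with the scaling: centring each array on its median gave 687 higher and 1134 lower in activated against resting cells, and 1481 higher and 488 lower in lymphomas against activated cells, in place of 1006 and 504 and of 838 and 986. Quantile normalisation gave 1036 higher and 895 lower in the last comparison. Of all tested genes, 42.8%, 33.1% and 35.6% had an unadjusted p under 0.05 in the 3 comparisons. Each group's arrays enter 2 of the 3 comparisons, which are therefore not independent of each other.

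**Figure D1:**
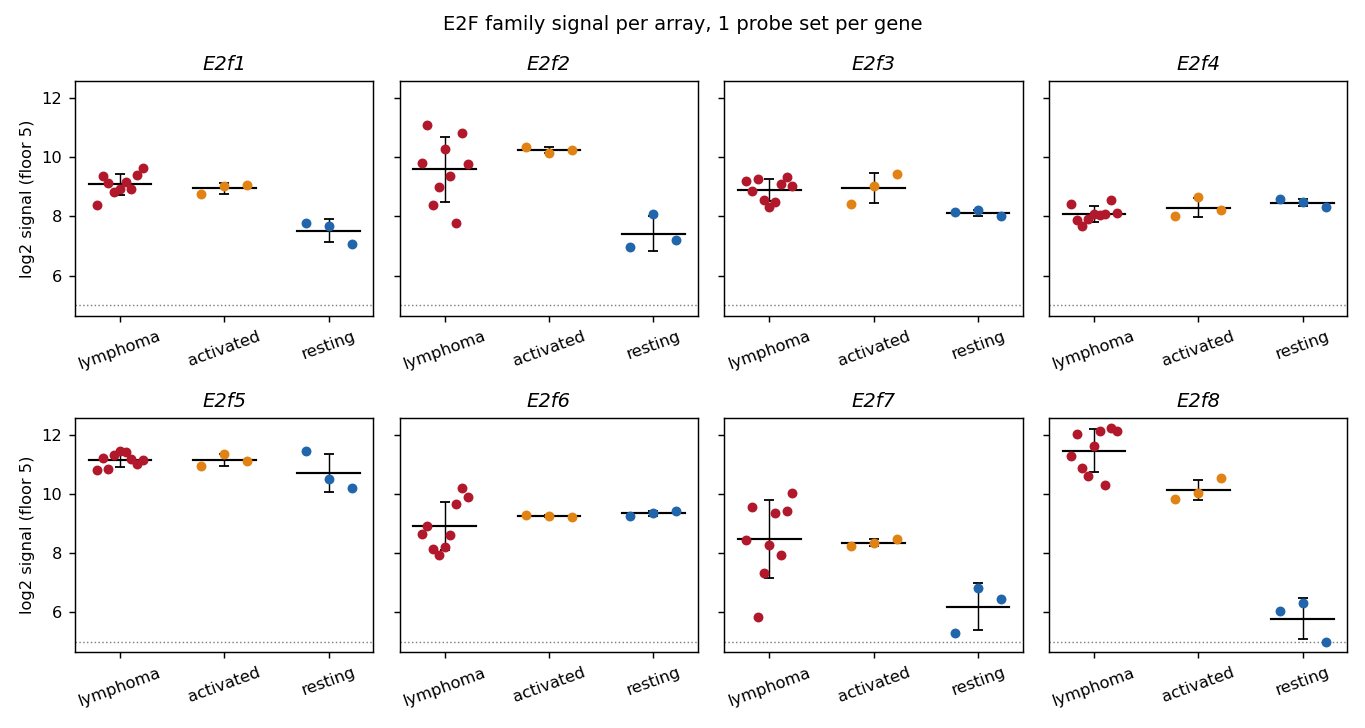
Log2 signal of each E2F gene (y axis, dotted line at the floor of 5) in every array of 9 lymphomas, 3 activated and 3 resting T cell samples (x axis), with points for arrays, a line at the group mean and bars of 1 SD. E2f1, E2f2, E2f3, E2f7 and E2f8 lie lower in resting cells, with 1 lymphoma inside the resting range for E2f2 and for E2f7. By the probe set shown, E2f8 is also higher in 8 of 9 lymphomas than in every activated array. E2f2 and E2f7 spread widely over the lymphomas.

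Promoter sequence was set beside these changes for the members with a window in RefSeq (GRCm38.p6), which runs from 250 bases before to 50 after a transcript start. Windows were found for 6 of the 8 genes, 8 windows in all, and E2f4 and E2f5 are named only. The E2F element was searched in its strict form as the 8 bases TTTCCCGC, or the same with CG, GC or GG in place of the CC after the first 3 bases, on both strands, and in a looser form inside it without the first T, as the 7 bases TTCCCGC with the same replacements. Stretches of 30 bases around matches are shown for 3 of the genes that were called, and for E2f3, to show the same element in the promoters of factors that bind it, with the match in capitals.
E2f2, chr4:136172294-136172323, plus strand: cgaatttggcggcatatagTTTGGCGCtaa
E2f3, chr13:29986056-29986085, minus strand: ttgaaaagccgGCGGGAAAtctgagtttcg
E2f7, chr10:110745230-110745259, plus strand: cccgcgtccccGCGGGAAAcgctcccgcgt
E2f8, chr7:48881689-48881718, minus strand: agaggcgcggaTTGGCGCgcggggccccgg

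The matches of E2f2, E2f3 and E2f7 are in the strict form, and that of E2f8 in the looser form. Strict matches were in 3 of the 8 family windows, in 13 of 26 windows of the E2F target list described further on and in 2.26% of all 32851 windows. Those 26 windows belong to 24 of the 30 listed target genes, not all of which are named in the text. Looser matches were in 4 of 8, 19 of 26 and 9.57%. The window of E2f1 held neither form, but its start lies 466 bases inside the outermost start of that gene, and that of E2f8 lies 477 bases inside. The CHR element, searched as TTTGAA on both strands, through which the MuvB complex acts on late cell cycle genes, was in 3 of 8 family windows, 3 of 26 target windows and 17.9% of all windows. A match describes letters in a window and shows no binding.

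The 250 bases before the start of the atypical pair are given whole because E2f8 changed most in the family and E2f7 varied widely between lymphomas (values further on), with looser E2F matches and CHR matches in capitals.
E2f7, chr10:110745189-110745438, plus strand: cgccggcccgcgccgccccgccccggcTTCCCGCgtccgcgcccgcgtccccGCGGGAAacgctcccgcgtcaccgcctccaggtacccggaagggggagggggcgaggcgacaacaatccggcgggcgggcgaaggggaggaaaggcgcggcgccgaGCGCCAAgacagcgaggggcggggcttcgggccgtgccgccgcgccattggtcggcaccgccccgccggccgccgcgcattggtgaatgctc
E2f8, chr7:48881597-48881846, minus strand: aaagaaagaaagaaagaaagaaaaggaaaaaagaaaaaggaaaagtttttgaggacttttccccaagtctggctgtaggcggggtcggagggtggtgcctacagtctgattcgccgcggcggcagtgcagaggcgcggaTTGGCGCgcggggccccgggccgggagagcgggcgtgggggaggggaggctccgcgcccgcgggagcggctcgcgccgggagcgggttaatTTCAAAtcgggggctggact

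E2f7 holds 3 looser E2F matches in this window and E2f8 holds 1, with a CHR match close to its start.

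Markers of other cell types were high in some lymphoma samples. The T cell markers, 7 of 8 on the array, summed to a signal of 9027 to 44463 in lymphomas, against 67456 to 68097 in activated and 68968 to 88896 in resting cells, with none at the floor throughout a group. The 10 neutrophil markers on the array, of 11 listed, summed to 520 to 114867 in lymphomas, 624 to 807 in activated and 580 to 712 in resting cells, where Lcn2 and Cxcr2 were at the floor in every normal array. The 9 B cell markers, of 10 listed, summed to 669 to 58571 in lymphomas, 1556 to 6292 in activated and 4083 to 5699 in resting cells, with none at the floor throughout a group. The 6 erythroid markers on the array, of 8 listed, summed to 272 to 12597 in lymphomas, 1055 to 1614 in activated and 264 to 544 in resting cells, with Epb42 at the floor in all activated and Rhag in all resting arrays. Their mean log2 level was 9.43 in mPTCL 8 and 10.31 in mPTCL 9, lymphomas high in E2f7 and E2f8, and at most 6.13 in normal arrays. It was also raised in mPTCL 5 (8.34) and mPTCL 1 (7.59). In mPTCL 2 and 6, likewise high in E2f7 and E2f8, it was 5.63 and 5.73. The 9 macrophage markers summed to 465 to 34851 in lymphomas, most in mPTCL 4, 425 to 504 in activated and 1995 to 4197 in resting cells, with C1qa, C1qc and Clec4f at the floor in all activated arrays. The 5 hepatocyte markers summed to 166 to 3120 in lymphomas, 244 to 309 in activated and 198 to 332 in resting cells. Their mean log2 level was 8.20 in mPTCL 8, at most 5.70 in the other lymphomas and at most 5.85 in normal arrays. NK cell markers summed to 621 to 28353 in lymphomas, 16313 to 23416 in activated and 10341 to 12546 in resting cells. Endothelial and stromal markers reached 2743, 4319 and 3023. Fewer cells of a type and less RNA per cell cannot be told apart in such bulk samples. The lymphoma and the normal arrays were deposited with different processing notes, and any batch that follows this division cannot be told apart from the group. What part other cells had in the lymphoma values was not tested beyond leaving out the 6 lymphomas whose mean log2 neutrophil marker level lay more than 2 above every normal array, and the 2 whose B cell level lay more than 1 above. Leaving out the 6 kept only mPTCL 3, 6 and 7. The loss of arrays and the loss of samples high in neutrophil markers cannot be told apart there.

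Among the activators, E2f1 was higher in lymphomas and in activated cells than in resting cells. Its signal ran from 333 in mPTCL 1 over a median of 558 to 789 in mPTCL 9, against 428, 525 and 539 in activated cells and 220.5, 204 and 134 in resting cells. All 9 lymphomas and all 3 activated arrays lay above the highest resting array, while the lymphomas covered the whole range of the activated arrays. The change was 1.44 ± 0.25 log2 units in activated against resting cells (SE over 3 and 3 arrays; 2.71-fold, limma adjusted p = 0.0067) and 1.57 ± 0.29 in lymphomas against resting cells (9 and 3 arrays; 2.96-fold, adjusted p = 0.0030). Lymphomas and activated cells differed by 0.13 ± 0.26 (adjusted p = 0.760, 95% interval -0.44 to 0.69). Another probe set gave 2.21 ± 0.44 in activated cells and 2.37 ± 0.35 in lymphomas, each against resting cells, both called in a fit of 22364 probe sets in which 11.7% and 15.6% were called. The remaining one stayed below the filter, with 6 of 9 lymphomas, 2 of 3 activated and 3 of 3 resting arrays under the floor.

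E2f2, an activator whose loss in mice leaves T cells that divide too readily, rose in culture and varied widely among lymphomas. The lymphomas ran from 221 in mPTCL 7 over a median of 876 to 2190.0 in mPTCL 2, against 1298, 1119 and 1207 in activated cells and 124, 269 and 147 in resting cells. Only mPTCL 7 among the lymphomas overlapped the resting arrays, 6 of 9 lay below every activated array, and 2 of 9 lay above. The change was 2.83 ± 0.30 in activated against resting cells (7.09-fold, adjusted p = 0.0012), 2.18 ± 0.61 in lymphomas against resting cells (4.52-fold, adjusted p = 0.0265) and -0.65 ± 0.59 in lymphomas against activated cells (adjusted p = 0.448).

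The lymphoma results for E2f2 depended on the probe set. A second one read 175 in mPTCL 7, a median of 354 and 1009 in mPTCL 2, against 915, 993 and 963 in activated cells and 354, 273 and 216 in resting cells. With it, 8 of 9 lymphomas lay below every activated array. The change against activated cells was -1.40 ± 0.44 (2.64-fold lower, adjusted p = 0.0337, called, where 18.3% of probe sets were) and that against resting cells was 0.39 ± 0.45 (adjusted p = 0.565). Across the 9 lymphomas the 2 probe sets correlated at r = 0.73, and both rose in activation (1.80 ± 0.20 in the second). The call against resting cells was also lost without any 1 of the resting arrays, with an adjusted p from 0.0587 to 0.129. Without the 6 lymphomas of high neutrophil marker level (mPTCL 1, 2, 4, 5, 8 and 9), the change was 1.096 against resting cells (adjusted p = 0.197) and -1.73 against activated cells (adjusted p = 0.035, called). That kept mPTCL 3, 6 and 7, with E2f2 signals of 334, 651 and 221. Those of mPTCL 7 and 3 were the lowest of all lymphomas.

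E2f3, the remaining activator, missed the threshold in each comparison. It read 317 in mPTCL 5, a median of 519 and 649 in mPTCL 8, against 344, 519 and 689 in activated cells and 282, 297 and 257 in resting cells. No lymphoma and no activated array overlapped the resting arrays. The change was 0.84 ± 0.27 in activated against resting cells (adjusted p = 0.0586) and 0.78 ± 0.27 in lymphomas against resting cells (adjusted p = 0.0600), neither called. Without activated replicate 1, E2f3 was called in activated against resting cells (1.103, adjusted p = 0.0223). The other probe set of the gene passed in lymphomas against resting cells (1.19 ± 0.24, 2.29-fold, adjusted p = 0.0045), with 434 to 722 in lymphomas and 204 to 275 in resting cells. Across the 9 lymphomas the 2 probe sets ran against each other (r = -0.63), so the order of the lymphomas by E2f3 differs with the probe set.

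The pocket protein-binding repressor E2f4 was called in no comparison. It read 204 in mPTCL 3, a median of 269.8 and 378 in mPTCL 8, against 259, 406 and 296 in activated cells and 381, 362 and 321 in resting cells. The groups overlapped, although 7 of 9 lymphomas lay below the lowest resting array. The change was -0.17 ± 0.22 in activated against resting cells (adjusted p = 0.599), -0.38 ± 0.25 in lymphomas against resting cells (adjusted p = 0.307; 95% interval -0.91 to 0.15) and -0.21 ± 0.26 in lymphomas against activated cells (adjusted p = 0.581). Of the 8 genes, only E2f4 and E2f7 were read by a single probe set.

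For E2f5 the brightest probe set, which has no accession in the platform annotation, disagreed with the other 2, which share an accession. The brightest read 1786 in mPTCL 1, a median of 2310.4 and 2788 in mPTCL 5, against 1965, 2599 and 2237 in activated cells and 2773, 1463 and 1172 in resting cells, and gave no called change (0.42 ± 0.31 in activated and 0.44 ± 0.25 in lymphomas, both against resting cells). The 2 sharing an accession correlated at 0.95 with each other over the 15 arrays and at -0.17 and -0.13 with the brightest. One of them read 41.2 in mPTCL 9, a median of 254 and 833 in mPTCL 8, against 204, 262 and 202 in activated cells and 329, 458 and 421 in resting cells. By both, every activated array lay below every resting array, with changes of -0.85 ± 0.21 (adjusted p = 0.0285) and -0.67 ± 0.16 (adjusted p = 0.0258), under 2-fold and not called. In lymphomas both covered a wide range, with mPTCL 7 and 9 low and mPTCL 8 high, and the changes against resting cells were -0.83 ± 0.74 and -0.62 ± 0.51 (adjusted p = 0.450 and 0.422).

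E2f6, the Polycomb-linked repressor, was even in normal cells and uneven in lymphomas by the probe set used for the gene. It read 244 in mPTCL 4, a median of 403 and 1187 in mPTCL 8, against 626, 612 and 589.7 in activated cells and 609, 655 and 688 in resting cells. In 6 lymphomas it lay below every normal array, and in mPTCL 7, 8 and 9 above every normal array, so that the mean change was -0.43 ± 0.46 against resting cells (adjusted p = 0.546) and -0.34 ± 0.46 against activated cells (adjusted p = 0.631). The SD over lymphomas was 0.82, against 0.04 in activated and 0.09 in resting cells. Tested genes as a whole also varied more in lymphomas, with a median SD of 0.60 against 0.19 in activated and 0.23 in resting cells. The lymphoma SD of E2f6 was above that of 70.0% of tested genes. A dimmer probe set of the gene read 175 to 492 in lymphomas, above all activated (122 to 168) and all resting arrays (60.1 to 147), and was called higher in lymphomas against resting cells (1.67 ± 0.35, 3.19-fold, adjusted p = 0.0056) and against activated cells (1.197 ± 0.30, 2.29-fold, adjusted p = 0.0126). The SD of the dimmer one was 0.43 in lymphomas, 0.23 in activated and 0.70 in resting cells. The 2 E2f6 probe sets correlated at -0.05 across the lymphomas. Which of them follows the whole transcript was not tested.

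**Figure D2:**
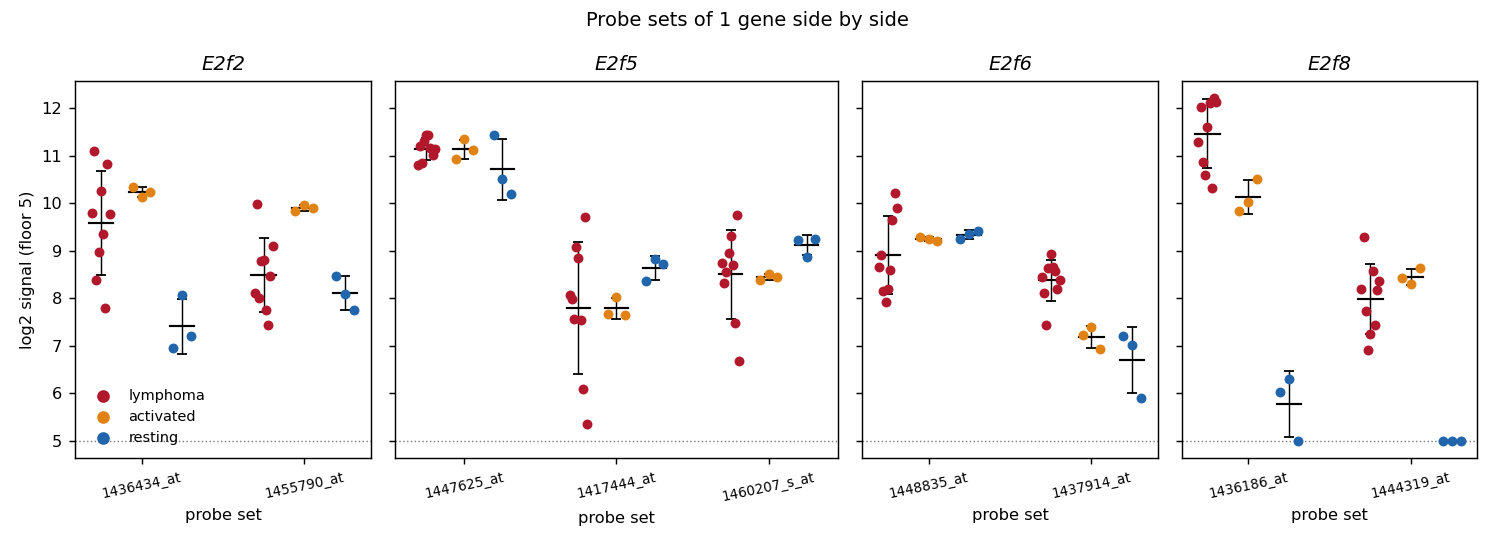
Log2 signal (y axis, dotted line at the floor of 5) of each filtered probe set of E2f2, E2f5, E2f6 and E2f8 (x axis), with 9 lymphomas, 3 activated and 3 resting arrays in that order, group means and bars of 1 SD. The probe set used for the gene comes first in each panel, and the E2f5 and E2f6 probe sets differ in direction while those of E2f8 both rise far above resting cells.

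The atypical repressors E2f7 and E2f8 had signals at or little above the floor in resting cells and rose in lymphomas and in activated cells. E2f7 read 56.7 in mPTCL 3, a median of 351 and 1050.4 in mPTCL 9, against 299, 325 and 354 in activated cells and 39.4, 112 and 88.0 in resting cells. Of the lymphomas, mPTCL 3 alone lay within the range of resting cells, 4 lay above every activated array and 3 below. The change was 2.16 ± 0.40 in activated against resting cells (4.46-fold, adjusted p = 0.0089) and 2.28 ± 0.74 in lymphomas against resting cells (4.85-fold, adjusted p = 0.0496). The lymphoma call was at the threshold: it was lost without any 1 of the resting arrays (adjusted p from 0.102 to 0.217) and without mPTCL 1, 2, 5, 6, 7, 8 or 9 (0.0559 to 0.0742). Without the 6 lymphomas of high neutrophil marker level the change was 1.52 (adjusted p = 0.298), and without mPTCL 1 and 5, of high B cell marker level, 2.31 (adjusted p = 0.0764). Lymphomas and activated cells differed by 0.12 ± 0.71 (adjusted p = 0.920, 95% interval -1.42 to 1.66). E2f7 spread widely across lymphomas (SD 1.32, above 87.7% of tested genes), and its SD was 0.94 without mPTCL 3, where that of E2f2 was 1.06.

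E2f8 had the largest changes of the 8 genes against resting cells. It read 1274 in mPTCL 7, a median of 3134 and 4746 in mPTCL 8, against 914, 1048 and 1471 in activated cells and 65.6, 79.1 and 18.1 in resting cells, the last under the floor. All 9 lymphomas and all 3 activated arrays lay above the resting arrays, and 8 of 9 lymphomas above every activated array. The change was 4.35 ± 0.39 in activated against resting cells (at least 20.4-fold higher, adjusted p = 6.83e-04) and 5.68 ± 0.44 in lymphomas against resting cells (at least 51.4-fold higher, adjusted p = 1.16e-05). Against resting cells the lymphoma change stayed called under each alternative that was run, at 5.32 (adjusted p = 0.0054) without the 6 lymphomas of high neutrophil marker level and at 5.69 (adjusted p = 9.29e-05) without mPTCL 1 and 5.

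The further rise of E2f8 in lymphomas over activated cells was less secure. It came to 1.33 ± 0.41 (2.52-fold, adjusted p = 0.0356). The other probe set, under the floor in all 3 resting arrays, read 121 in mPTCL 4, a median of 287 and 627 in mPTCL 2, against 344, 314 and 397 in activated cells, with 6 of 9 lymphomas below every activated array and a change of -0.46 ± 0.43 (adjusted p = 0.449). Against resting cells that probe set also rose, by 3.45 ± 0.20 in activated cells (at least 10.9-fold) and 2.99 ± 0.43 in lymphomas (at least 7.96-fold). The call against activated cells was lost without any 1 of the activated arrays (adjusted p from 0.0728 to 0.152), without mPTCL 2, 6, 8 or 9 (0.0502 to 0.054), at 0.97 without the lymphomas of high neutrophil marker level (adjusted p = 0.193) and at 1.34 without mPTCL 1 and 5 (adjusted p = 0.0571).

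**Figure D3:**
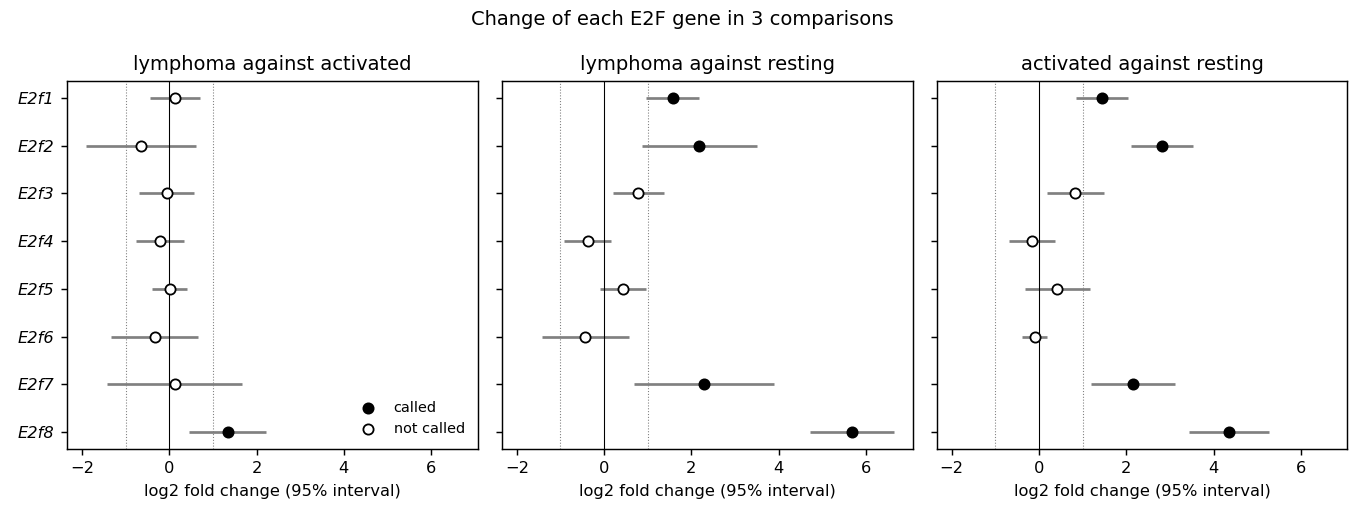
Log2 fold change of each E2F gene (x axis, with 95% intervals from limma and dotted lines at 2-fold) in 3 comparisons, filled where called. Against resting cells the same 4 genes are called in lymphomas and in activated cells, with E2f8 at 5.68 and 4.35, and against activated cells only E2f8, at 1.33, is called among the 8 genes.

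Variation between lymphomas was compared with Mki67, a marker of cycling cells, whose signal ran from 3665 in mPTCL 4 over a median of 13328 to 18298 in mPTCL 2, against 14577 to 19837 in activated and 744 to 1202 in resting cells. Across the 9 lymphomas, E2f8 and Mki67 had Pearson's r = 0.82 (2-sided exact permutation p = 0.0042, adjusted 0.110) and Spearman's rho = 0.87 (p = 0.0045, adjusted 0.0781). For E2f7 r was 0.71 (exact permutation p = 0.0354, adjusted 0.368) and rho was 0.90 (p = 0.0020, adjusted 0.0527). E2f2 followed with r = 0.63 and rho = 0.80, and E2f1 with r = 0.44 and rho = 0.75 (exact permutation p for r = 0.0646 and 0.234, for rho = 0.0138 and 0.0255; adjusted 0.420, 0.660, 0.120 and 0.189). Without mPTCL 4 and 7, which lie farthest from the median of Mki67, r was 0.81 for E2f8, 0.86 for E2f7, 0.72 for E2f2 and 0.37 for E2f1.

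**Figure D4:**
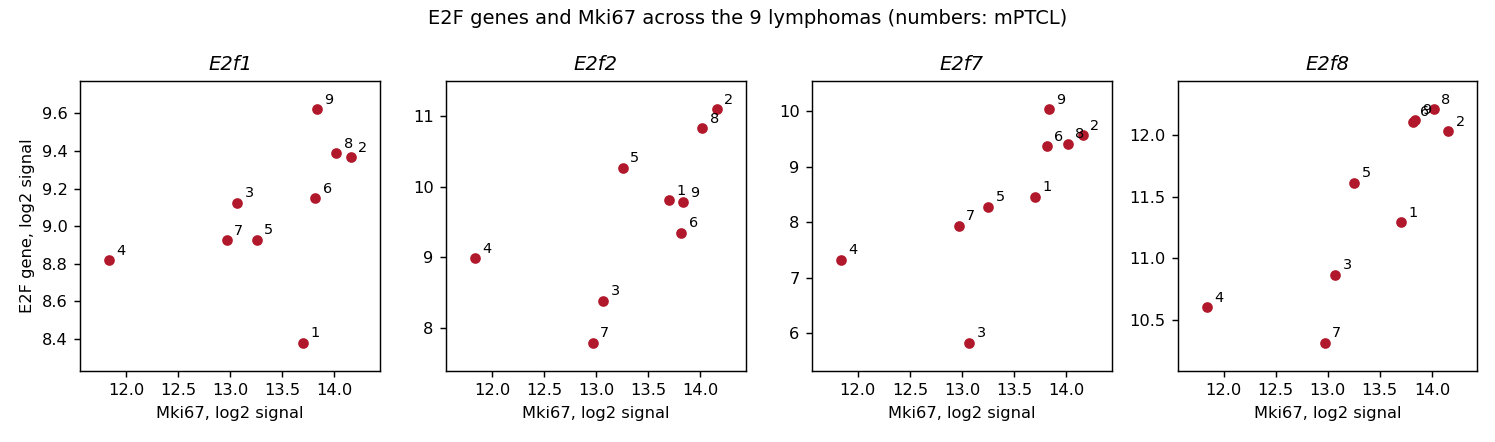
Log2 signal of E2f1, E2f2, E2f7 and E2f8 (y axes) against that of Mki67 (x axis) in the 9 lymphomas, with points numbered by mPTCL. Lymphomas 2, 6, 8 and 9 are at the upper right for E2f7 and E2f8 and 3, 4 and 7 are low, with r = 0.71 and 0.82 before adjustment over 52 relations.

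These were part of a family of 52 relations, 8 with Mki67, 16 with the neutrophil and B cell marker means and 28 between members. None passed after adjustment in the exact permutation tests. At an unadjusted p under 0.05 there were 6 by Pearson's r and 10 by Spearman's rho. Between members, E2f7 and E2f8 had r = 0.79 (exact permutation p = 0.0089, adjusted 0.117) and E2f2 and E2f8 r = 0.81 (exact permutation p = 0.0090, adjusted 0.117), with 0.90 and 0.59 when the 2 lymphomas farthest out were left out. E2f2 and the neutrophil marker mean had r = 0.68 (exact permutation p = 0.0498, adjusted 0.385), which fell to 0.19 without mPTCL 3 and 7 and so rests on them. E2f3 and E2f5 had r = -0.89 (exact permutation p = 0.0016, adjusted 0.0808), on the probe sets whose partners for the same gene ran otherwise.

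Among 11299 other tested genes, those most like E2f8 across the 9 lymphomas were Nek2, a kinase of centrosome separation (r = 0.97), Afg3l1 (0.97) and Fam83d, a spindle protein (0.95). Those most like E2f7 were Camk2n1 (0.97), Eya3 (0.96) and Dek, a chromatin protein (0.95). For E2f1 they were Itga2 (0.90), Usp14 (0.89) and Cox5a (0.88), and for E2f2 Iars (0.95), Smchd1 (0.91) and Mgat5 (0.89). E2f3 was most like Fem1b (0.98), Gtf2e1 (0.97) and the DNA polymerase delta subunit Pold3 (0.97), and E2f4 most like Sf3b4 (0.94), Nadk2 (0.92) and Pogz (0.90). E2f5 was nearest to Manbal (0.95), Nemf (0.94) and Gpc4 (0.93), and E2f6 to Cacnb4 (0.97), Srbd1 (0.95) and Pigq (0.93). With 9 points and so many genes compared these values are a description, and all genes share the arrays and their scaling.

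The DP partners and pocket proteins changed in part. Of 5 genes, Rb1, which encodes the retinoblastoma protein, rose in activated against resting cells (1.14 ± 0.11, adjusted p = 8.86e-04). The DP partner Tfdp1 (0.82), Tfdp2 (0.37), Rbl1 (0.45) and Rbl2 (0.57) were not called. Of these, Tfdp1 (adjusted p = 0.0228) and Rbl1 (adjusted p = 0.0238) passed the adjusted p but not 2-fold. In lymphomas against resting cells Tfdp1 rose by 2.07 ± 0.27 (4.19-fold, adjusted p = 3.80e-04) and Rb1 by 1.05 ± 0.28 (adjusted p = 0.0206), with Tfdp2 at 0.30, Rbl1 at 0.31 and Rbl2 at -1.07 ± 0.42 (adjusted p = 0.0945). Against activated cells Tfdp1 was higher in lymphomas (1.25 ± 0.26, adjusted p = 0.0064) and Rbl2, the pocket protein of quiescent cells, lower (-1.64 ± 0.41, 3.11-fold lower, adjusted p = 0.0145), and Rb1 (-0.09), Rbl1 (-0.14) and Tfdp2 (-0.07) were not called. Against resting cells 1 of 5 was called in activated cells and 2 of 5 in lymphomas, beside 12.7% and 13.9% of all genes. In lymphomas against activated cells 1 was called higher and 1 lower, beside 7.04% and 8.28% of all genes. The list medians were 0.57, 0.31 and -0.09 in activated against resting cells, lymphomas against resting cells and lymphomas against activated cells, the order kept for the lists that follow.

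In the MuvB complex, which joins E2F4 in resting cells and B-Myb or FoxM1 in dividing ones, Mybl2 (1.70 ± 0.27, 3.26-fold, adjusted p = 0.0049) and Foxm1 (1.34, adjusted p = 0.0052) rose in activated against resting cells. The core genes Lin9 (-0.30), Lin37 (0.04), Lin52 (-0.26), Lin54 (0.44) and Rbbp4 (-0.29) were not called. That is 2 of 7 called, beside 12.7% of all genes. In lymphomas against resting cells 1 of 7 was called, where 13.9% of all genes were, Mybl2 (1.88 ± 0.42, 3.69-fold, adjusted p = 0.0096). Foxm1 (0.75, adjusted p = 0.0967), Lin54 (0.96), Rbbp4 (0.45), Lin52 (-0.04), Lin9 (-0.06) and Lin37 (-0.81) were not called. Of these, Lin54 (adjusted p = 0.0254) and Lin37 (adjusted p = 0.0494) passed the adjusted p, as 2138 of 11902 tested genes did, but not 2-fold. Against activated cells 0 of 7 were called by limma. Lin37 (-0.85, adjusted p = 0.0336) and Rbbp4 (0.73, adjusted p = 0.0230) passed the adjusted p, as 2447 of 11902 tested genes did, but not 2-fold. Only these 2 had an unadjusted p under 0.05, beside 35.6% of all genes. The others were Lin54 (0.52), Lin9 (0.24), Lin52 (0.22), Mybl2 (0.18) and Foxm1 (-0.58). The medians of this list were 0.04, 0.45 and 0.22.

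**Figure D5:**
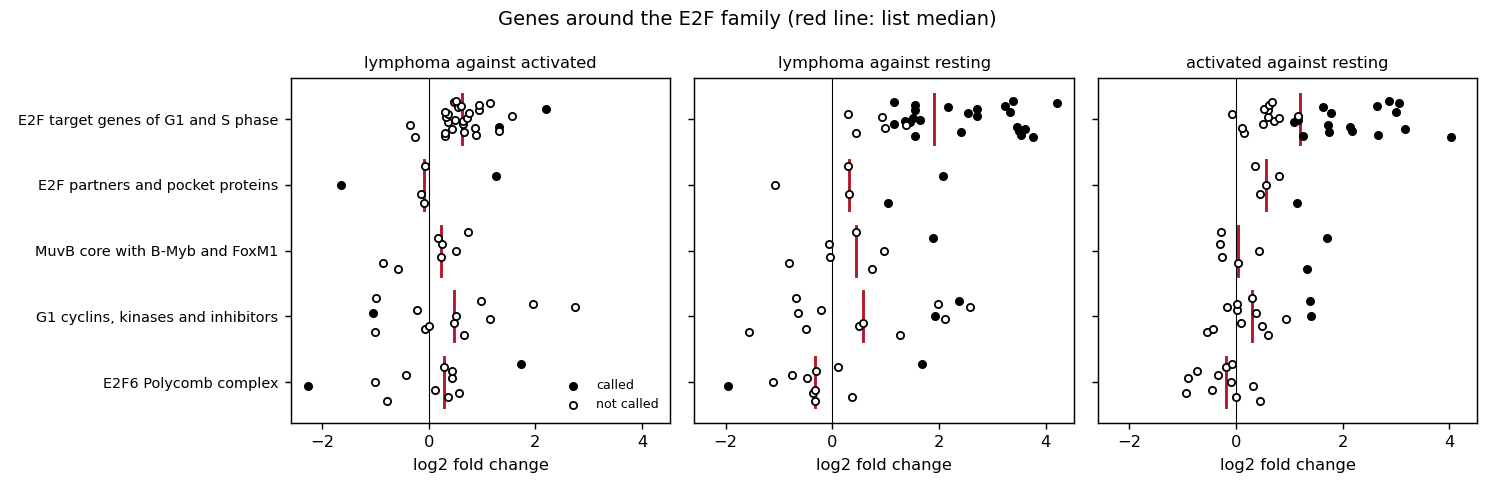
Log2 fold change (x axis) of each tested gene in 5 lists around the E2F family (y axis) in 3 comparisons, filled where called, with the list median as a red line. The E2F target genes have a median of 1.91 in lymphomas against resting cells and 1.21 in activated against resting cells, and 2 of 28 are called in lymphomas against activated cells.

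The E2F target genes of G1 and S phase were largely higher in lymphomas and in activated cells than in resting cells. Of 28 tested, 16 rose and 0 fell in activated against resting cells, where 12.7% of all genes were called, with a median of 1.21. They were led by cyclin A, Ccna2 (4.03 ± 0.20, 16.4-fold), the mitotic kinase Cdk1 (3.17 ± 0.14, 9.02-fold) and thymidine kinase Tk1 (3.06 ± 0.26, 8.34-fold). In lymphomas against resting cells 23 of 28 rose and 0 fell, where 13.9% of all genes were called, with a median of 1.91 and Tk1 (4.21 ± 0.49), Ccna2 (3.77 ± 0.62) and Cdk1 (3.62 ± 0.52) in front. That count was 14 or 15 without 1 of the resting arrays. In lymphomas against activated cells, 2 of 28 were called, the replication factor gene Rfc3 (2.19 ± 0.43, 4.58-fold, adjusted p = 0.0042) and the checkpoint kinase Chek1 (1.32 ± 0.37, 2.49-fold, adjusted p = 0.0233), with a median of 0.63 beside -0.08 over all genes. Of all genes 15.3% were called there, 7.04% higher and 8.28% lower. The 2 called targets were both higher, a share near that of all genes called higher, and 0 were lower. That count was 6 without mPTCL 4, 4 without mPTCL 5 and 1 without any 1 of the activated arrays.

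Upstream of the retinoblastoma protein, 13 genes of D cyclins, their kinases and inhibitors were tested. In activated against resting cells the inhibitors Cdkn1a (1.41, adjusted p = 0.0141) and Cdkn2c (1.39 ± 0.11, adjusted p = 4.19e-04) were called, both higher. Both inhibitors were also called in lymphomas against resting cells, Cdkn2c at 2.38 ± 0.32 (5.19-fold, adjusted p = 4.65e-04) and Cdkn1a at 1.93 (adjusted p = 0.0143). In lymphomas against activated cells Cdkn1b, which encodes the inhibitor p27, was called lower (-1.04, adjusted p = 0.0085). No D cyclin or kinase of the list was called in any of the 3 limma comparisons. In activated against resting cells some passed the adjusted p but not 2-fold. These were Cdk6 (0.95, adjusted p = 0.0096), Cdk2 (0.50, adjusted p = 0.0151), Ccnd2 (-0.55, adjusted p = 0.0166) and Ccnd3 (-0.44, adjusted p = 0.0311). Ccnd1 (0.61) and Cdk4 (0.10) passed neither. In the 3 comparisons, 8, 5 and 5 of the 13 genes had an unadjusted p under 0.05, beside 42.8%, 33.1% and 35.6% of all genes. Called were 2, 2 and 1 of the 13 genes, beside 12.7%, 13.9% and 15.3% of all genes. The medians of this list were 0.30, 0.57 and 0.47.

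Of 11 tested genes of the Polycomb complex that contains E2F6, none was called in activated against resting cells by limma. At an unadjusted p under 0.05 there were 3, beside 42.8% of all genes. These 3 also passed the adjusted p and were lower, but by less than 2-fold. They were Hdac2 (-0.93, adjusted p = 5.15e-04), Pcgf6 (-0.90, adjusted p = 0.0046) and Rnf2 (-0.74, adjusted p = 0.0012). Of 11902 tested genes, 3678 had an adjusted p under 0.05 there. In lymphomas Max, which encodes a DNA-binding partner in that complex and of Myc, was lower by 1.95 log2 units than in resting cells (-1.95 ± 0.33, adjusted p = 0.0019) and also lower than in activated cells (-2.26 ± 0.34, adjusted p = 0.0011). Yaf2, a RING1-binding subunit, was higher (1.67 ± 0.32 against resting and 1.74 ± 0.32 against activated cells, adjusted p = 0.0036 and 0.0031). In each lymphoma comparison 1 of the 11 genes was thus called higher and 1 lower. Of all genes, 7.03% were called higher and 6.84% lower against resting cells, and 7.04% and 8.28% against activated cells. The medians of the 11 genes were -0.18, -0.32 and 0.29. Germline genes that E2F6 represses in mice had low signals, and none of 5 on the array passed the filter. Smc1b and Mael were under the floor in all 15 arrays, and Slc25a31 reached 33.5 in 1 activated array. Stag3 and Tuba3b reached 61.1 and 48.9 in lymphomas, 110.4 and 65.8 in activated cells and 78.5 and 63.9 in resting cells.

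Of 4 tested apoptosis genes that E2F1 can activate, Bcl2l11 (1.22, adjusted p = 0.0049) and Apaf1 (1.13, adjusted p = 0.0016) rose in activated against resting cells. Bbc3 (0.77, adjusted p = 0.0686) and Pmaip1 (0.70, adjusted p = 0.0432 but under 2-fold) were not called. In lymphomas against resting cells none was called and none had an unadjusted limma p under 0.05, with changes of -0.30 for Bbc3, 0.18 for Apaf1, 0.35 for Bcl2l11 and 1.67 for Pmaip1. In lymphomas against activated cells Bbc3 was lower (-1.07, adjusted p = 0.0269), and Apaf1 (-0.95), Bcl2l11 (-0.86) and Pmaip1 (0.98) were not called. Called were 2, 0 and 1 of the 4 genes in these comparisons, beside 12.7%, 13.9% and 15.3% of all genes. The medians of the 4 genes were 0.95, 0.27 and -0.90.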

How the data were processed

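The authors deposited intensity values on a linear scale, 1 array per sample, made by the MAS5 algorithm of Affymetrix Expression Console, per the submitters' processing notes, which name version 1.1 for the lymphoma arrays. Each array's trimmed mean of signals came to 500. The number of arrays limits the precision. Probe sets with 1 gene symbol were used. Of these 34945, 34741 had a gene identifier found in RefSeq (GRCm38.p6) and took the symbol given there, whether or not it differed. Genes with 100 in at least 3 arrays were tested. Each comparison was fitted in limma 3.58.1 (R 4.3.3) to the arrays of its own groups, with an eBayes trend and Benjamini-Hochberg adjustment over 11902 genes, and the code was tested on simulated data. The members and gene lists were chosen with earlier results of these data known. Named were all members, Mki67, every gene of lists of up to 7 genes, from each longer list up to 4 of the called genes that changed most in a comparison (no more than 3 in either direction), and the 3 genes most like each member. Some genes of the longer lists that passed the adjusted p but not the 2-fold change are named as well. Alternatives covered the floor, filter, scaling, probe set choice, fit, a replicate block and arrays left out, and separate probe sets were added after the data were seen. The block matched arrays by replicate number, so in its lymphoma comparisons it kept only mPTCL 1, 2 and 3 of the 9 lymphomas. The deleted gene itself is not analysed here.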

Additional observations from a re-analysis of the deposited data

How the results depend on the processing

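Limits: there were 3 arrays in each normal group, and a change of an E2F gene with an SE near 0.7 could have been called only where it was large. Signals under 32 carry no order, and probe sets of E2f2, E2f3, E2f5, E2f6 and E2f8 disagree in part. In activated against resting cells, the called members kept direction and side of the threshold in 82 of 83 values over the alternatives, in lymphomas against resting cells in 88 of 115 with 27 losing the call, and in lymphomas against activated cells in 16 of 29 with 12 losing it and 1 turned. The members called in lymphomas against resting cells numbered 2 with no filter, 2 with the replicate block, 2 without the lymphomas high in neutrophil markers, 2 without those high in B cell markers, and 2 to 4 with 1 array left out. In lymphomas against activated cells 0 were called with no filter, with the mean of probe sets, with the block and without the lymphomas high in B cell markers, and 0 to 1 with 1 array left out. The E2F targets called there were 4 with median centring, 1 with the mean of probe sets, 1 without cross-hybridising probe set types, 1 with the block, 5 without the lymphomas high in neutrophil markers, and 1 to 6 with 1 array left out. Targets called were 8 in activated against resting cells with all 15 arrays in 1 fit, which also ended the call of E2f7 (adjusted p = 0.207), and 14 to 25 in lymphomas against resting cells with 1 array left out. All genes called were 397 in activated against resting cells with all arrays in 1 fit, 949 in lymphomas against resting and 1045 in lymphomas against activated cells with the block, 778 to 827 in lymphomas against resting cells without 1 resting array, and 916 to 928 in lymphomas against activated cells without 1 activated array. Among the relations across lymphomas, 1 passed with median centring and 1 with the mean of probe sets, both times E2f8 with Mki67.

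Signs turned in lymphomas against activated cells for E2f3 (0.10), E2f4 (0.0295) and E2f5 (-0.0509) with quantile normalisation, for E2f3 (0.29), E2f4 (0.14) and E2f6 (0.0095) with median centring, which moved the median of all genes by 0.34, for E2f3 (0.11) and E2f6 (0.43) with the mean of probe sets, and for E2f7 (-0.63) without the lymphomas high in neutrophil markers. The mean of probe sets turned E2f5 (-0.37) and E2f6 (0.19) in activated and E2f5 (-0.34) and E2f6 (0.62) in lymphomas against resting cells. Single probe sets, an alternative chosen after seeing the data, turned E2f3 (0.27), E2f6 (1.197) and E2f8 (-0.46) in lymphomas against activated cells, E2f5 (-0.85 and -0.67) and E2f6 (0.48) in activated against resting cells, and E2f5 (-0.83 and -0.62) and E2f6 (1.67) in lymphomas against resting cells. With 1 array left out, lymphomas against activated cells ran from -0.32 to 0.18 for E2f3, -0.0847 to 0.12 for E2f5 and -0.0748 to 0.45 for E2f7. Median centring moved the median of all genes by -0.26 in activated against resting cells. The causes were not tested.

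Replicate numbers gave no sign of pairing: the deviations of same-numbered activated and resting arrays correlated at -0.01, 0.05 and -0.01. Differently numbered ones correlated at -0.038 to 0.046. Such values, from deviations within groups of 3 arrays, cannot decide whether same-numbered samples share an animal. The replicate block left mPTCL 1, 2 and 3 alone among the lymphomas. With it, lymphomas against activated cells gave 0.15 for E2f3, -0.19 for E2f5 and -0.40 for E2f7. In lymphomas against resting cells the block ended the calls of E2f1 (1.45, adjusted p = 0.0982) and E2f7 (1.76, adjusted p = 0.228). Matching by number and the loss of the other lymphomas cannot be told apart in these values. Not every array correlated best with its own number.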
